A study of Mus musculus with 12 samples.

Results

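The 9 genes described here are Arid1a, Arid1b, Arid2, Arid3a, Arid3b, Arid4a, Arid4b, Arid5a and Arid5b, mouse members of the family that carries an AT-rich interaction domain (ARID). They were taken by symbol from the 27179 genes of a count table, and all 9 were among the 13134 genes with enough counts to test. They were singled out with their levels under doxycycline and without it already known, and so was the contrast between the BAF subunits and the Arid3 and Arid5 factors. Their differences between those groups are therefore given as a description, with no p-value. The RNA came from T-cell acute lymphoblastic leukemia cells of ALL101, which is 1 primary mouse leukemia carried in recipient mice. Its cells hold Vav-tTA, a tetracycline-off transactivator under a promoter active in blood cells, and TRE-GFP-shIkaros, a hairpin against Ikaros linked to green fluorescent protein. In the doxycycline group, 3 recipients were given the drug for 3 days, which turns the hairpin off and lets endogenous Ikaros (Ikzf1) return, and spleen cells were sorted as GFPmid. In the untreated group, 3 recipients received no drug, the hairpin stayed on, and spleen cells were sorted as GFPhigh. Both groups carried the same transgenes and the same leukemia, so drug, Ikaros level and GFP gate cannot be told apart here. Counts of the 2 sequencing runs of each RNA were added up, and n counts mice.

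Depth was 33899095 to 44949303 counts in doxycycline mice and 29904744 to 33063390 in untreated mice, and the median log2 fold change of all tested genes was -0.0037. Ikzf1 stood at 1438, 1523 and 1495 CPM (counts scaled by TMM-corrected library size) in doxycycline mice and at 153.0, 149.7 and 158.6 CPM in untreated mice, which is 9.66-fold higher. The T-cell identity list (Lck, Tcf7, Thy1 and other genes, 14 of 14 with counts in every mouse) summed to 11280 to 11630 CPM in doxycycline mice and 9320 to 9583 CPM in untreated mice. Tcf7 and Thy1 made up most of that sum, and not all of the list lay higher: Ptcra was at 16.7 to 48.6 CPM in doxycycline mice and 115.3 to 145.3 CPM in untreated mice, and Cd3g at 369.8 to 407.4 in doxycycline mice and 509.8 to 546.9 CPM in untreated mice. B cell markers summed to 1.65 to 2.51 CPM in doxycycline mice and 0.537 to 1.06 CPM in untreated mice, with Pax5 at 0 in all 6 mice. The library of untreated mouse 3 carries INJ in its name where the other 5 mice have a GFP-sort wording, and the sort of that mouse is not described further in the labels.

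The ARID is a helix-turn-helix fold that contacts DNA. Some members read AT-rich sequence, others bind with little sequence preference, and the family divides by the machinery around the domain. ARID1A and ARID1B are alternative subunits of the canonical BAF (SWI/SNF) remodelling complex, and ARID2 belongs to its PBAF form. ARID4A and ARID4B are bound to the SIN3 histone deacetylase complex and the retinoblastoma protein. ARID3 and ARID5 proteins act outside BAF, as DNA-binding regulators in blood and other lineages or, for Arid5a, also as a protein that stabilizes messenger RNAs.

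Promoter sequence was examined for the Ikaros core motif, TGGGAA on one strand or TTCCCA on the other, because Ikaros was the factor restored. RefSeq (GRCm38.p6) supplied windows of 250 bases before the transcript start for 6 of the 9 genes, with 2 windows each for Arid1a and Arid3b. The windows of Arid4b, Arid5a and Arid5b are shown because Arid4b held the single match and because Arid5a and Arid5b were 2 of the 3 members at least 2-fold higher with doxycycline. Each window precedes 1 listed transcript start, and genes can have others: 4 of the 8 windows, those of Arid5b and Arid1b among them, lie wholly inside the gene's annotated span and 2, that of Arid4b among them, partly. Capitals mark the motif, and each window reads 5′ to 3′ along the gene.
Arid5b, chr10:68278727-68278976, minus strand: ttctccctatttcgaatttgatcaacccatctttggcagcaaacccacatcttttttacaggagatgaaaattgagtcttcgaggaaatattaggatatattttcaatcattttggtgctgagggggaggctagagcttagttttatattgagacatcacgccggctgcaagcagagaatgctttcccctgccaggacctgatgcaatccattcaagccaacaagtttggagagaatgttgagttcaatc
Arid5a, chr1:36307483-36307732, plus strand: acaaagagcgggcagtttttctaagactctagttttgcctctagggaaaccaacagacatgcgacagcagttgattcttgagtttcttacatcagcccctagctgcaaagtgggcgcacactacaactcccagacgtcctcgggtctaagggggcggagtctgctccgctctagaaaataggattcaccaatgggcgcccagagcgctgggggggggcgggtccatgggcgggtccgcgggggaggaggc
Arid4b, chr13:14063534-14063783, plus strand: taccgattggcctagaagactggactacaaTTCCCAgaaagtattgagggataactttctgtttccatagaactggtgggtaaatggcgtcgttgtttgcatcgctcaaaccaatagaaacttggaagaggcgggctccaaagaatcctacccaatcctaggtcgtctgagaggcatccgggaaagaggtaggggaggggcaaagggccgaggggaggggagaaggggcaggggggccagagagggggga
The Arid4b match starts 220 bases before that start, on the minus strand. No copy of these letters stood in the other 7 windows, so 1 of 8 windows and 1 of 6 genes held it. Of all 32851 RefSeq windows 21.6% held it, and 23.4% of 9897 tested genes had at least 1 window holding it. A match in these letters is a description of sequence and not evidence of binding. The Arid5b window was the least GC-rich of the 8, at 42.0% GC with 4 CpG dinucleotides, which placed it at the 3.88th percentile of 12512 windows of tested genes. The median of those windows was 59.6% GC and 15 CpG. The Arid5a window had 58.0% GC and 13 CpG and the Arid4b window 54.0% GC and 8 CpG, while that of Arid1b had 76.0% GC and 37 CpG.

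All 9 genes had a higher mean in doxycycline mice than in untreated mice, and for each of them every doxycycline mouse lay above every untreated mouse. The same held for 30.2% of tested genes. With the quasi-likelihood test of edgeR and an adjusted p of 0.05 as the limit, 8 of the 9 were called higher and 0 lower, with Arid2 not called, against 24.8% of tested genes called higher, 25.2% called lower and 50.0% called in either direction. Because the genes were chosen from this contrast, nothing is read from that count. The log2 fold changes ranged over 0.21 to 0.32 in the 3 BAF subunits, 0.29 to 0.40 in the 2 ARID4 genes and 0.71 to 1.96 in the 4 ARID3 and ARID5 genes. The 3 members at least 2-fold higher, Arid3b, Arid5a and Arid5b, all lay in that last class, where 8.22% of tested genes were called and at least 2-fold higher. The sizes of the BAF genes were 65.8th to 72.4th percentiles of all tested fold changes, and those of Arid3b, Arid5a and Arid5b 93.5th to 97.3th percentiles. The number called was 4 without untreated mouse 2, which left Arid3b, Arid4a, Arid5a and Arid5b, and 6 to 8 without any other single mouse. Calls over all tested genes, in either direction, also fell without untreated mouse 2, from 6571 to 4869. That was the lowest total with any 1 mouse left out. Whether the ARID genes lost a larger share of their calls than other genes was not tested.

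**Figure D1:**
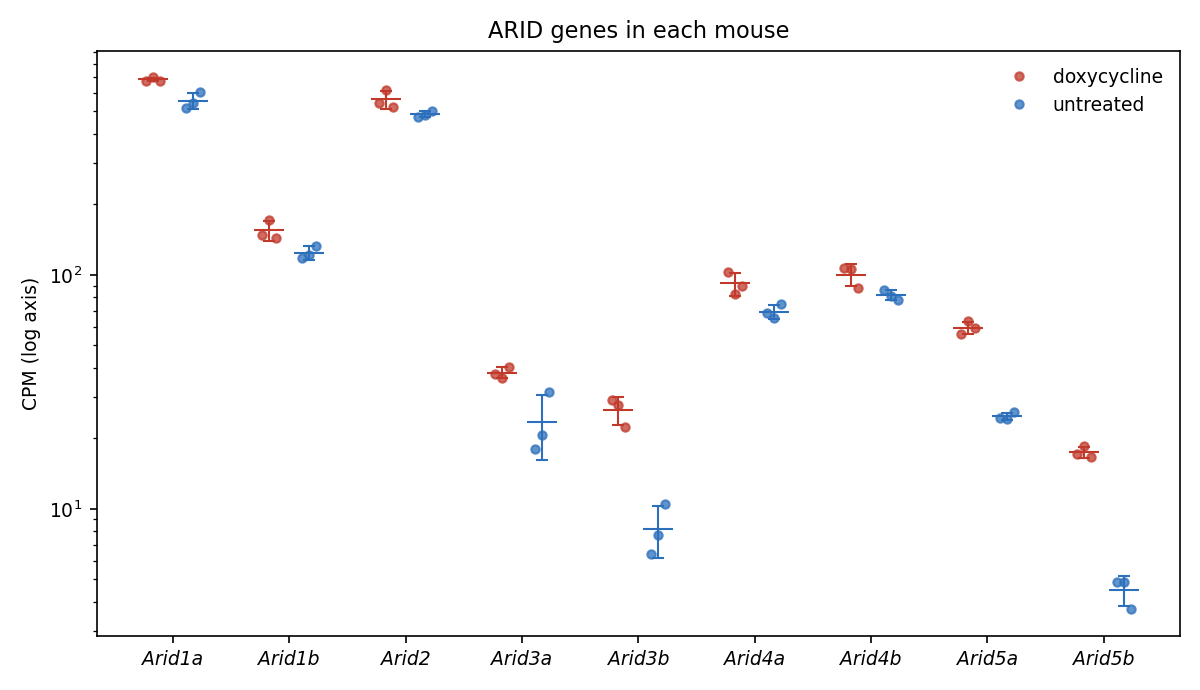
Level of each ARID gene in CPM on log axes, with 1 point per mouse and a bar for the mean ± SD (n = 3 mice per group), doxycycline left of untreated. No gene has overlapping groups, and Arid5b spans 16.65 to 18.54 CPM in doxycycline mice and 3.73 to 4.88 CPM in untreated mice.

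The largest of the 9 differences was that of Arid5b, followed by Arid3b and then Arid5a. Arid5b (Entrez 71371, chr10:68092523-68279355), a partner of the histone demethylase PHF2 and in human T-cell leukemia a described target of the TAL1 complex, stood at 17.08, 18.54 and 16.65 CPM in doxycycline mice and at 4.86, 4.88 and 3.73 CPM in untreated mice. Its means were 17.4 ± 0.99 and 4.49 ± 0.66 CPM (SD, n = 3 each), 3.88-fold higher, at a log2 fold change of 1.96 ± 0.14 (SE). The 3 doxycycline mice lay close together and the gap between groups was 1.77 on the log2 scale. Untreated mouse 3 gave the lowest value, and it rests on 112 counts. Arid5a (Entrez 214855, chr1:36307733-36324037), which in mouse binds and stabilizes Il6 mRNA, stood at 55.7, 63.2 and 59.3 CPM in doxycycline mice and at 24.5, 24.3 and 25.8 CPM in untreated mice. Both groups were tight, with coefficients of variation (CV) of 6.29% and 3.35% across mice, and the mean was 2.39-fold higher (log2 fold change 1.26 ± 0.08, SE). By CV, Arid5a varied less within groups than most tested genes, at the 15.8th percentile, and Arid3a at the 80.2th percentile varied more than most.

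Arid3b (Entrez 56380, chr9:57790353-57836847), the paralog of the B-cell regulator Bright (Arid3a), stood at 29.1, 27.8 and 22.4 CPM in doxycycline mice and at 6.41, 7.74 and 10.5 CPM in untreated mice. Its mean was 3.22-fold higher (log2 fold change 1.69 ± 0.19, SE), and doxycycline mouse 3 and untreated mouse 3 were the nearest to each other across the gap of 1.09. Arid3a (Entrez 13496, chr10:79927043-79955018), a factor that in B cells activates the immunoglobulin heavy chain locus, stood at 37.8, 36.3 and 40.5 CPM in doxycycline mice and at 18.0, 20.6 and 31.6 CPM in untreated mice. The mean was 1.63-fold higher (log2 fold change 0.71 ± 0.20, SE), and untreated mouse 3 lay well above the other 2 untreated mice. CVs of Arid3a were 5.59% in doxycycline mice and 30.8% in untreated mice. Without untreated mouse 3 its log2 fold change was 0.98, and without doxycycline mouse 2 as well it was 1.03.

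Untreated mouse 3 also had the highest untreated sum of erythroid markers (7 of 8 listed genes had a row), at 45.3 CPM against 10.3 and 5.84 CPM in the other 2 untreated mice. The doxycycline mice summed to 64.0 to 80.5 CPM for those 7 genes. Myeloid markers (8 of 8) summed to 63.1 to 84.1 CPM in doxycycline mice and 22.6 to 42.7 CPM in untreated mice, with Itgam at 37.8 to 48.3 CPM in doxycycline mice and 9.09 to 10.7 CPM in untreated mice. While the groups overlapped for Lyz2, Csf1r and Adgre1 were also higher in every doxycycline mouse. Csf1r was at 12.21 to 21.25 CPM with doxycycline and 3.03 to 5.96 CPM untreated, and Adgre1 at 5.145 to 6.325 and 0.632 to 2.349 CPM. The granulocyte genes Mpo, S100a8 and S100a9 went the other way, each lower in every doxycycline mouse than in every untreated mouse (S100a9 at 1.54 to 2.94 CPM with doxycycline and 3.46 to 6.93 CPM untreated), and Elane was lower on average. For Mpo the groups barely separated, at 0.955 CPM in doxycycline mouse 2 and 0.965 CPM in untreated mouse 3. Natural killer and platelet markers (6 of 6) summed to at most 1.05 CPM in any mouse. ARID3A is also active in red cell and B cell development, and the part of these markers in the ARID3 and ARID5 differences was not tested. In sorted bulk RNA, fewer cells of a type and less RNA per cell cannot be told apart.

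The ARID4 genes differed less. Arid4a (Entrez 238247, chr12:71015081-71099351), which binds the retinoblastoma protein and the SIN3 complex, stood at 103.3, 82.9 and 89.2 CPM in doxycycline mice and at 68.4, 65.3 and 74.9 CPM in untreated mice. Every doxycycline mouse was higher, doxycycline mouse 1 most of all, and the mean was 1.32-fold higher (log2 fold change 0.40 ± 0.10, SE). Arid4b (Entrez 94246, chr13:14063609-14199603), its paralog in the same complex, stood at 107.2, 105.6 and 87.6 CPM in doxycycline mice and at 86.1, 81.2 and 78.3 CPM in untreated mice. Only a gap of 0.02 on the log2 scale separated the lowest doxycycline value from the highest untreated one, and the mean was 1.22-fold higher (log2 fold change 0.29 ± 0.09, SE). Arid4b shares 257 exonic bases with Ggps1 on the opposite strand in GENCODE M21, and the strand setting of the counting is not given in the sources used here.

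The BAF subunits included the most abundant members and lay, with Arid4b, at the low end of the fold changes. Arid1a (Entrez 93760, chr4:133679008-133756769), the large DNA-contacting subunit of canonical BAF, stood at 676.1, 698.2 and 676.5 CPM in doxycycline mice and at 518.1, 540.6 and 604.9 CPM in untreated mice. Its mean was 1.23-fold higher (log2 fold change 0.30 ± 0.07, SE), and untreated mouse 3 lay nearest the doxycycline mice. Arid1b (Entrez 239985, chr17:4994297-5347656), the mutually exclusive alternative to Arid1a, stood at 148.5, 172.1 and 144.3 CPM in doxycycline mice and at 117.5, 121.5 and 133.3 CPM in untreated mice, a log2 fold change of 0.32 ± 0.09 (SE). Arid2 (Entrez 77044, chr15:96287522-96405463), the subunit that marks PBAF, stood at 543.2, 619.2 and 522.4 CPM in doxycycline mice and at 474.2, 482.9 and 501.3 CPM in untreated mice. It had the smallest difference of the 9 (log2 fold change 0.21 ± 0.08, SE), and the lowest doxycycline mouse was 0.06 above the highest untreated mouse on the log2 scale. Arid2 shares 92 exonic bases with the miRNA gene Gm25397, which has no row in the table, and Arid3b shares 360 with the antisense gene Gm17231, likewise without a row. The other 6 members overlap no other annotated exon.

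**Figure D2:**
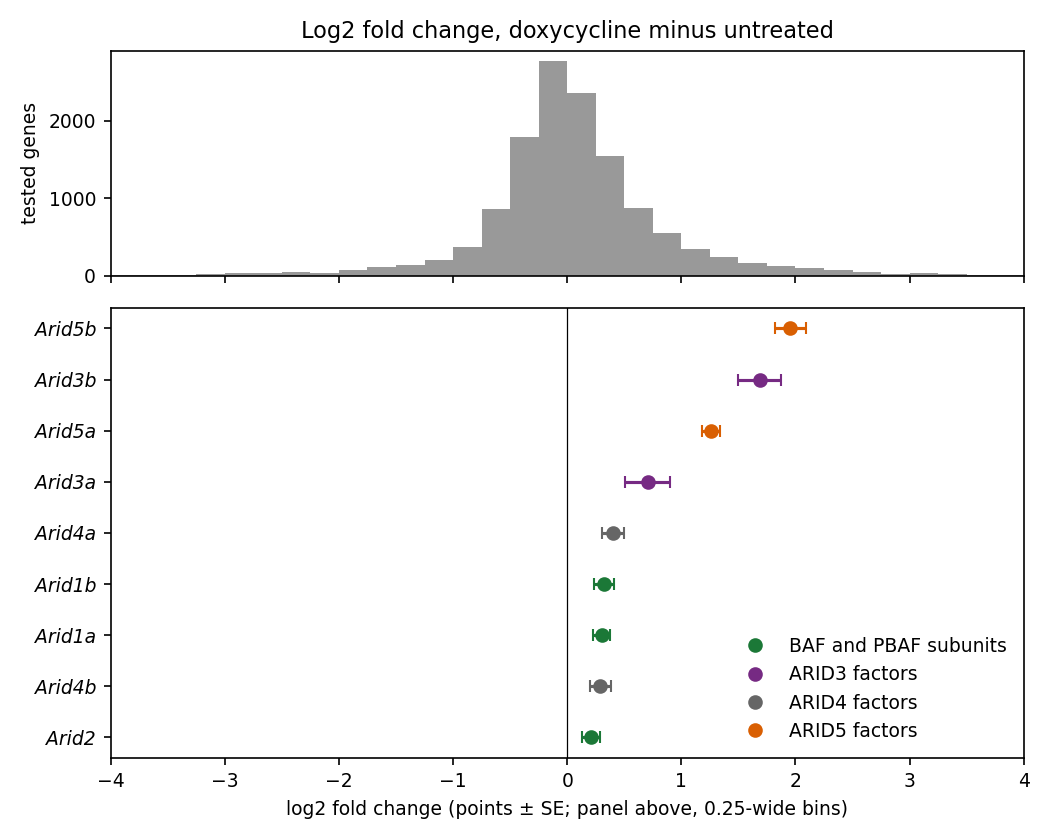
Log2 fold change (doxycycline over untreated, ± SE, n = 3 mice per group) of the 9 genes ordered by size and coloured by class, under a histogram of the tested genes on the same axis (55 genes below and 17 above its range are not drawn). The BAF genes lie between 0.21 and 0.32 and the ARID3 and ARID5 genes between 0.71 and 1.96.

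Levels were set between genes only per length, as CPM per kilobase of the deposited gene length (RPKM). In doxycycline mice the order of means was Arid1a (83.6 RPKM), Arid2 (62.2), Arid4b (16.4), Arid4a (15.9), Arid1b (13.7), Arid5a (10.4), Arid3a (7.17), Arid3b (6.94) and Arid5b (3.88). In untreated mice it was Arid1a (67.8 RPKM), Arid2 (53.8), Arid4b (13.4), Arid4a (12.0), Arid1b (11.0), Arid3a (4.40), Arid5a (4.36), Arid3b (2.16) and Arid5b (0.999). Arid5a and Arid3a thus changed places between groups, but in untreated mice the 2 overlapped. Neighbours whose mice overlapped were Arid4b with Arid4a and Arid4a with Arid1b in both groups, Arid3a with Arid3b in doxycycline mice and Arid3a with Arid5a in untreated mice. Per coding length of GENCODE M21 in place of the deposited length, Arid2 stood above Arid1a in both groups and Arid5a ranked 3 in doxycycline mice and 7 in untreated mice, while Arid5b stayed last. The mice of Arid2 and Arid1a overlapped in both groups on that scale, and those of Arid5a overlapped with Arid4b in doxycycline mice.

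**Figure D3:**
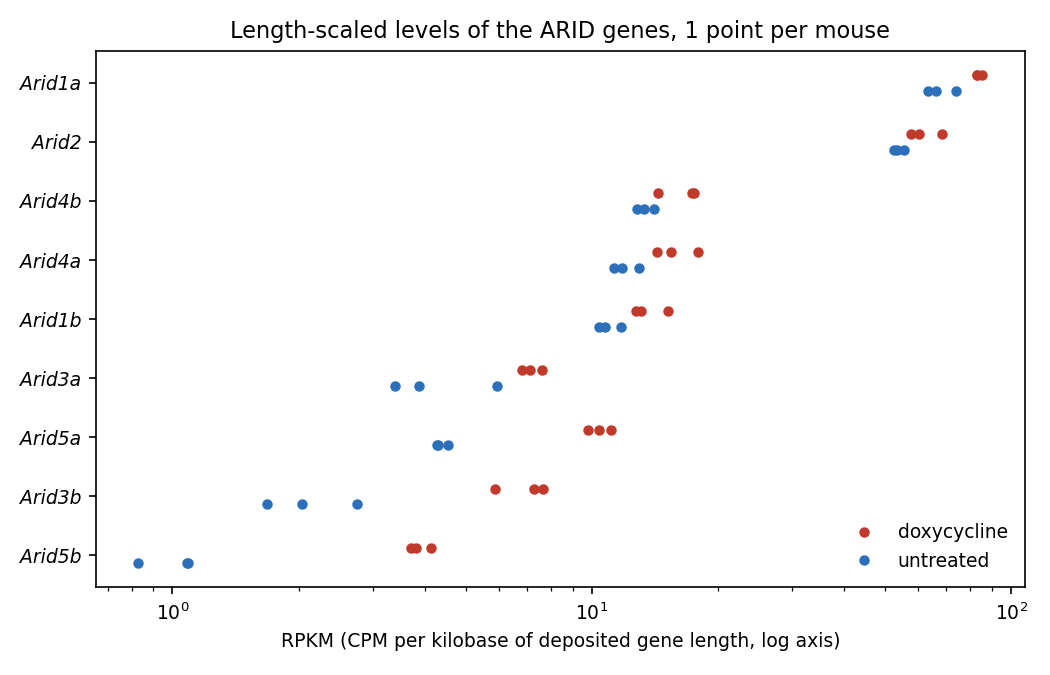
Length-scaled level of the 9 genes in RPKM on a log axis, with 1 point per mouse (n = 3 per group), doxycycline above untreated. Arid1a and Arid2 stand above all others in both groups, and Arid5b is lowest.

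The balance inside each class differed by class. The per-length ratio of Arid1a to Arid1b was 6.14 ± 0.46 in doxycycline mice and 6.19 ± 0.09 in untreated mice, and that of Arid4a to Arid4b was 0.975 ± 0.129 and 0.900 ± 0.096 (SD, n = 3 each). The mice of both groups overlapped in both ratios. Arid3a over Arid3b was 1.05 ± 0.21 in doxycycline mice, where it spanned 0.929 to 1.30, and 2.02 ± 0.13 in untreated mice, where it spanned 1.90 to 2.16. Arid5a over Arid5b was 2.69 ± 0.12 in doxycycline mice and 4.45 ± 0.88 in untreated mice. In both of these the 2 groups did not overlap, so Arid3b and Arid5b each made up a larger share of their pair in doxycycline mice. Of the sum of Arid1a, Arid1b and Arid2 per length, Arid1a made up 52.5% in doxycycline mice and 51.1% in untreated mice, Arid1b 8.57% and 8.26%, and Arid2 39.0% and 40.6%. Of the sum over all 9 members, the ARID3 and ARID5 genes made up 12.9% ± 0.18 in doxycycline mice and 6.98% ± 0.69 in untreated mice, the ARID4 genes 14.7% and 15.0%, and the BAF genes 72.4% ± 1.30 and 78.0% ± 0.40.

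**Figure D4:**
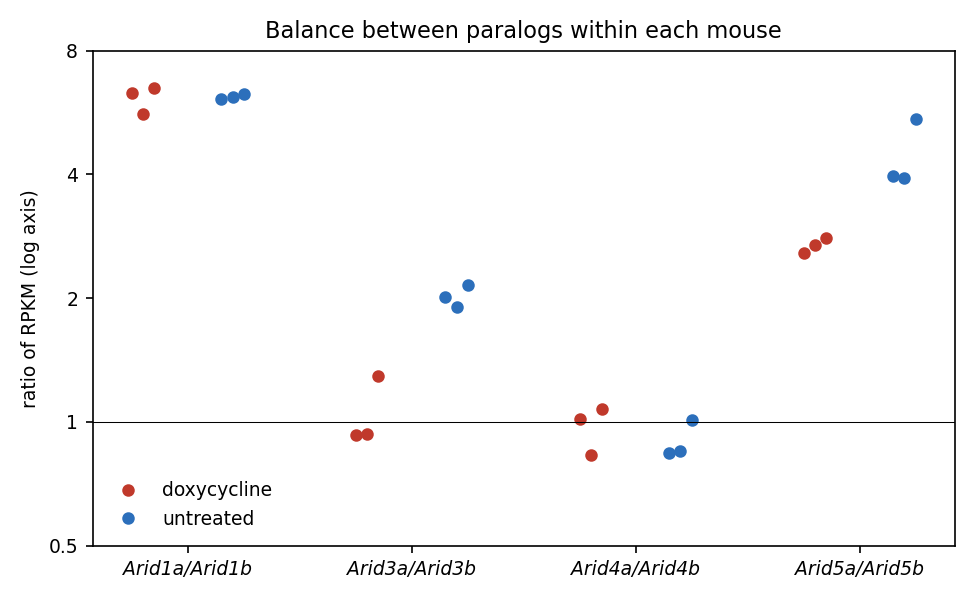
Per-length ratio of the first to the second paralog in each ARID class on a log axis, with 1 point per mouse (n = 3 per group), doxycycline left of untreated. The groups separate for Arid3a over Arid3b and for Arid5a over Arid5b and overlap for Arid1a over Arid1b and Arid4a over Arid4b.

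The 2 runs of each RNA gave a technical check that used no group. Over 54 comparisons of run 2 with run 1 (9 genes in 6 mice), 2 had an exact binomial p under 0.05 (two-sided) and 0 passed Benjamini-Hochberg adjustment, the smallest adjusted p being 0.302. The median absolute log2 difference between runs was 0.0275, and the widest was 0.43, for Arid5b in untreated mouse 3.

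The genes most like Arid5b over the 6 mice, by the root mean square difference of their log2 CPM after centring (9401 genes compared), were Trav13-3 (0.16), Trac (0.16) and Trav13n-4 (0.17). Trac, the T-cell receptor alpha constant region, stood at 567.9, 557.3 and 555.6 CPM in doxycycline mice and at 162.6, 120.4 and 126.1 CPM in untreated mice. The 2 variable segments have near-identical copies, so their counts are uncertain. Trav13-3, Trac and Trav13n-4 had log2 fold changes of 2.09, 2.04 and 2.11, beside 1.96 for Arid5b. The matched profile includes the doxycycline contrast, so genes of similar fold change come out as alike. Shared regulation was not tested.

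Of 27 listed BAF genes other than the ARID subunits that could be tested, 10 rose, 6 fell and 11 did not pass edgeR's quasi-likelihood test, with a median log2 fold change of 0.10 against -0.0037 over all tested genes. Over all tested genes, 24.8% rose and 25.2% fell, so 6 falls in 27 are close to that background. The 10 rises in 27 are a larger share than 24.8%, and the list was not tested as a set. Bicra, a subunit of the non-canonical complex, rose 1.72-fold (60.0 ± 3.9 CPM in doxycycline mice and 34.9 ± 5.3 CPM in untreated mice, adjusted p = 0.00089, edgeR). Smarcc2, a core scaffold, rose by 0.45 on the log2 scale (adjusted p = 0.0013, edgeR), and Actb, the actin subunit shared with the cytoskeleton, by 0.53 (adjusted p = 0.00062, edgeR). The ATPase Smarca4 had a log2 fold change of -0.14 with an adjusted p of 0.116 (edgeR). Among genes named for their role after their values were seen, the alternative ATPase Smarca2 rose (log2 fold change 0.73, adjusted p = 0.0020, edgeR). The PBAF subunits, which assemble with Arid2, went different ways by edgeR's test, since Phf10 fell by 0.80 (adjusted p = 0.0021) and Brd7 fell by 0.33 (adjusted p = 0.0091), while Pbrm1 rose by 0.21 (adjusted p = 0.041). Pbrm1 did not pass without doxycycline mouse 1 or any 1 of the untreated mice (adjusted p 0.065 to 0.157, edgeR). Of the list, 6 rose when untreated mouse 1 was left out and 5 when untreated mouse 2 was.

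**Figure D5:**
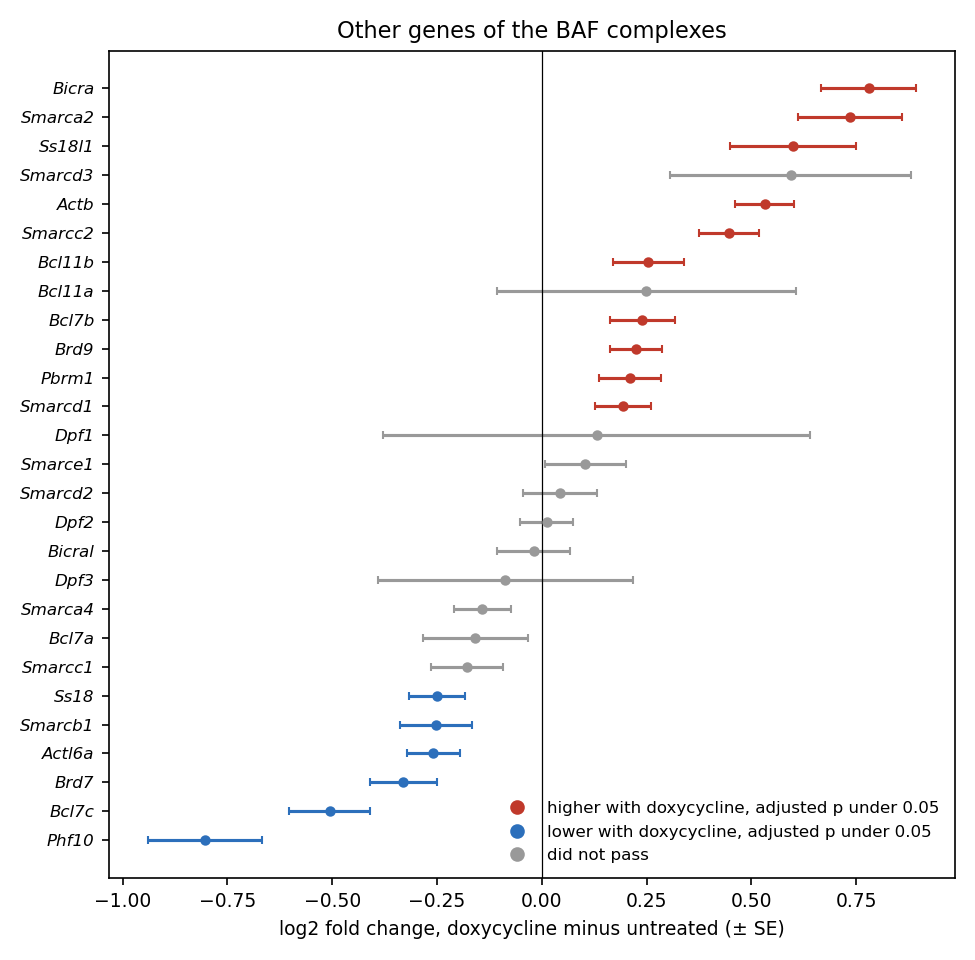
Log2 fold change (doxycycline over untreated, ± SE) of the 27 tested BAF genes other than the ARID subunits, from the fit over all 13134 genes (n = 3 mice per group), coloured by whether the gene passed edgeR's test. Bicra is highest at 0.78 and Phf10 lowest at -0.80.

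Of 22 SIN3 and retinoblastoma partners of the ARID4 genes, 4 rose, 4 fell and 14 did not pass, at a median of 0.04. Both counts lie below the 24.8% and 25.2% of all tested genes that rose and fell. Rb1, the retinoblastoma tumour suppressor, rose by 0.93 (188.5 ± 31.5 CPM in doxycycline mice and 99.0 ± 4.64 CPM in untreated mice, adjusted p = 0.00052, edgeR), and its relative Rbl2 rose by 1.22 (adjusted p = 5.2e-05, edgeR). Sap30, a SIN3 subunit, stood at 12.9 ± 1.7 CPM in doxycycline mice and 25.5 ± 2.1 CPM in untreated mice and fell by 0.99 (adjusted p = 0.00044, edgeR), and Sinhcaf, named after its values were seen, fell by 0.75 (adjusted p = 0.0034, edgeR). Sin3a, the scaffold, had a log2 fold change of -0.01 (adjusted p = 0.915, edgeR). Of the list, 2 fell when doxycycline mouse 2, untreated mouse 1 or untreated mouse 2 was left out.

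Of 13 tested partners and targets of ARID3 and ARID5 proteins, 5 rose, 3 fell and 5 did not pass, at a median of 0.11, beside 24.8% of all tested genes that rose and 25.2% that fell. Sp100, a nuclear body protein that binds ARID3A, rose by 1.78 (186.1 ± 29.1 CPM in doxycycline mice and 54.1 ± 4.36 CPM in untreated mice, adjusted p = 4.9e-05, edgeR). Rc3h2, the RNA-decay factor roquin-2, rose by 0.71 (adjusted p = 0.0026, edgeR), and Stat3, whose mRNA Arid5a is known to stabilize in mouse T cells, rose by 0.38 (adjusted p = 0.0020, edgeR). The demethylase Phf2, partner of ARID5B, had a log2 fold change of 0.24 and an adjusted p of 0.073 (edgeR), against 0.0479 with DESeq2 and 0.0388 with edgeR without untreated mouse 3. Of the list, 0 fell when doxycycline mouse 3 or untreated mouse 1 was left out, 1 when doxycycline mouse 2, untreated mouse 2 or untreated mouse 3 was, and 2 when doxycycline mouse 1 was. Leaving out 1 mouse also lowered the calls over all tested genes, from 6571 to between 4869 and 6281. The 3 that fell in the full comparison, E2f1, Gtf2i and Tbx21, were named after their values were seen. In edgeR's test E2f1 fell by 0.23 (adjusted p = 0.040), Gtf2i by 0.21 (adjusted p = 0.028) and Tbx21 by 0.51 (adjusted p = 0.040). Il6, the Arid5a target given above, had at most 1 count in any mouse and was not tested.

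The circuit in which human ARID5B is described in T-cell leukemia, from TAL1 and its partners to MYC, gave 1 rise, 3 falls and 7 genes that did not pass among 11 tested, at a median of -0.06. Of all tested genes 24.8% rose and 25.2% fell, so the 3 falls are near the background and the 1 rise is below it. Myc, which human ARID5B is reported to activate, fell by 1.33 while Arid5b was higher (145.4 ± 29.6 CPM in doxycycline mice and 364.9 ± 26.0 CPM in untreated mice, adjusted p = 0.00044, edgeR). Runx1 and Etv6, blood transcription factors of that circuit, fell by 0.70 (adjusted p = 0.00012) and by 0.64 (adjusted p = 0.00079) in edgeR's test. The gene that rose was Ldb1, an adaptor of the TAL1 complex named after its value was seen (log2 fold change 0.35, adjusted p = 0.0041, edgeR). Tal1 itself was low, at 1.96 CPM in doxycycline mice and 1.43 CPM in untreated mice (adjusted p = 0.20, edgeR), and Gata3 (-0.06, adjusted p = 0.82) and Myb (-0.22, adjusted p = 0.051) did not pass edgeR's test, though Myb passed DESeq2's (adjusted p = 0.0285) and, without doxycycline mouse 2, edgeR's (adjusted p = 0.0078). Of the list, 3 rose when untreated mouse 1 was left out and 2 when doxycycline mouse 2 or 3 was.

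Of 4 further tested ARID-domain genes, 1 rose, 0 fell and 3 did not pass, beside 24.8% of all tested genes that rose and 25.2% that fell. Jarid2, a partner of Polycomb complex PRC2, rose by 0.21 (147.3 CPM in doxycycline mice and 127.5 CPM in untreated mice, adjusted p = 0.034, edgeR). That call was lost when any mouse other than doxycycline mouse 2 was left out, with an adjusted p of 0.079 to 0.115. The histone demethylases Kdm5a (0.14, adjusted p = 0.133) and Kdm5b (0.37, adjusted p = 0.14) did not pass in edgeR's test. Kdm5b passed without doxycycline mouse 2 (0.57, adjusted p = 0.012) and Kdm5a without doxycycline mouse 3 (0.20, adjusted p = 0.030). Kdm5c, named after its value was seen, had a log2 fold change of -0.09 (adjusted p = 0.244, edgeR). The median of the 4 was 0.17.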

How the data were processed

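RNA was prepared from FACS-sorted cells with the QIAGEN RNeasy plus mini kit, per the labels' protocols. The authors deposited raw counts per Entrez gene with a gene length, from featureCounts after CASAVA 1.8.1 on mm10, per the submitters' processing notes. Which aligner, annotation and strand setting were used is not given in the sources used here. Of 27179 identifiers, 25275 (93.0%) matched a symbol. Per-library counts equalled the whole-series table in 12 of 12 libraries.

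The 2 runs were summed per mouse. Fits used edgeR 4.0.16 (R 4.3.3) after filterByExpr and TMM scaling, without a block, with robust quasi-likelihood F tests. Benjamini-Hochberg adjustment ran over 13134 genes at 0.05. An SE is the size of a log2 fold change over root F. CPM use TMM-scaled totals. By total counts before that scaling, 1 CPM is 29.9 to 45.0 counts. Statistics were tested on simulated data in which a small share of genes changed, up or down. A shift of as many genes as were called here was not simulated.

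The members and lists were chosen with earlier results of these data known. Named genes were the up to 3 per list with the smallest p, plus Smarca4, Phf2, Sin3a, Rb1, Tal1, Gata3, Runx1 and Myb, and others are marked where named. 1 listed gene is not reported by name here. Genes most like Arid5b were non-members with an official symbol and a mean of at least 5 CPM. Alternatives were RLE, upper-quartile and no scaling, 2 other filters, DESeq2 1.42.0, limma-voom 3.58.1, a non-robust fit, either run by itself, the replicate block and leaving out each mouse. Leaving out untreated mouse 3 with doxycycline mouse 2, and coding length for RPKM, were added after seeing the data.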

Additional observations from a re-analysis of the deposited data

How the results depend on the processing

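Each of the 9 ARID genes kept a positive log2 fold change in all 18 alternatives run, the widest range being that of Arid3a, 0.55 to 1.03. Members called higher numbered 4 to 8 with 1 mouse left out and 7 with untreated mouse 3 and doxycycline mouse 2 both left out. They numbered 8 or 9 in every other setting. With 1 mouse left out, 4869 to 6281 genes were called in all, and the BAF list had 5 to 9 rises and 4 to 7 falls, the SIN3 list 3 to 5 and 2 to 4, the ARID3 and ARID5 partners 5 to 6 and 0 to 2, the TAL1 circuit 1 to 3 and 3 to 4, and the other ARID-domain genes 0 to 2 and 0. Rises among the other ARID-domain genes numbered 0 with no filter, with run 1 alone or with the replicate block, and 2 with both mice left out. Falls among the ARID3 and ARID5 partners numbered 1 with both left out. Rises in the TAL1 circuit numbered 2 with library totals only, no filter, the filter of over 1 CPM, DESeq2, limma-voom, run 2 alone or both left out. Sin3a reversed to 0.011 with run 1 alone and 0.0625 with both left out, and spanned -0.067 to 0.054 with 1 mouse left out. Gata3 spanned -0.204 to 0.157 with 1 mouse left out and was 0.0996 with both left out. The cause of these shifts was not tested.

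Same-numbered mice correlated at 0.156, -0.0116 and -0.103 in their deviations from the group means. Differently numbered mice spanned -0.191 to 0.168. Same-numbered mice thus showed no closer likeness, but 3 mice per group cannot settle whether the numbers pair the mice. With the replicate block, 6259 was the number of all genes called, and 8 members were called. With it Jarid2 (adjusted p = 0.0626) lost its call and Myb (-0.229, adjusted p = 0.0442) gained one.

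RefSeq proteins were not used here, so protein length as a scale was not run. Drug, Ikaros level and GFP gate cannot be told apart, and the 3 mice per group share 1 primary leukemia.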
